A study of Mus musculus with 19 samples.

Results

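The genes described here are 9 markers of the primitive endoderm: the transcription factors Gata6, Gata4, Sox17, Sox7 and Foxa2, the receptor Pdgfra, the adaptor protein Dab2, and the basement membrane chains Lama1 and Col4a1. They were matched by gene symbol, without use of their values, and each was found once among the 53379 genes of the deposited count table. A gene was tested when it reached 1 FPKM (counts per kilobase of exon and per 1 M counts) in at least 2 of 19 embryos, which kept 18410 genes and all 9 markers. Foxa2 reached that level in 2 wild-type (WT) blastocysts and in no other embryo, so it entered the tests only through the group in which it was highest.

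The primitive endoderm is the layer of the inner cell mass that faces the blastocyst cavity and later forms the parietal and visceral endoderm of the yolk sac. Inner cells at first carry both GATA6 and NANOG, and FGF4 released by future epiblast cells acts through FGFR1 and FGFR2 to favour GATA6 in their neighbours. SOX17, GATA4 and SOX7 follow, together with the PDGF receptor alpha, and the maturing layer secretes laminin and type IV collagen into the basement membrane on which it rests.

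Each library came from the polyA RNA of 1 embryo, collected 96 hours after in vitro fertilisation and culture in KSOM, a medium for preimplantation embryos. The strain was given as B6D2F1 throughout, and the parents of 16 embryos were heterozygous for a deletion in Alyref, whose protein serves mRNA export, or in Gabpb1, a GABP transcription factor subunit. From Alyref+/- by Alyref+/- matings there were 2 morulae labelled KO, with 3 morulae and 3 blastocysts labelled non-KO. From Gabpb1+/- by Gabpb1+/- matings there were likewise 3 morulae labelled KO, with 2 morulae and 3 blastocysts labelled non-KO. Non-KO stands for WT or heterozygous, and the remaining 3 blastocysts came from WT B6D2F1 parents. KO embryos were recognised by the submitters from missing reads over the deleted region of these same libraries, and no blastocyst was labelled KO.

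Gene counts ranged from 7.49 M to 31.5 M per embryo, and 1 count was worth 0.0322 to 0.132 CPM (counts per 1 M after TMM scaling). ERCC spike-in RNA took 0.501% to 1.95% of counts. Within the Alyref cross, Alyref itself had a mean of 53.1 CPM in KO morulae (SD 7.57, n = 2) against 221 CPM in the others (SD 65.6, n = 3). Gabpb1 had a mean of 163 CPM in morulae labelled Gabpb1 KO (SD 91.2, n = 3) against 88.6 CPM in their non-KO counterparts (SD 7.46, n = 2). Gabpb1 was thus not lower in the morulae labelled KO. Counts per gene do not show the deleted region, so they cannot decide whether the label holds. Each cross and the WT control had its own fertilisations and the labels give no batch, hence batch cannot be told apart from cross. The labels do not state whether embryos of a group came from separate parents, so p-values measure only the spread between these embryos. Markers of cumulus cells summed to at most 3.37 CPM and those of sperm to at most 2.15 CPM in any embryo.

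Per unit of transcript length, the markers spanned a wide range. In WT blastocysts the mean level was 105 FPKM for Dab2, above 94.1% of the tested genes, and 36.2 FPKM for Gata6. Lama1 followed at 13.4 FPKM, Sox17 at 12.3, Col4a1 at 9.83, Gata4 at 7.22, Pdgfra at 4.42, Sox7 at 2.38 and Foxa2 at 1.50, the last being above 30.2% of the tested genes. Gata6 and Dab2 reached 1 FPKM in all 10 morulae and all 9 blastocysts. The other markers were more unevenly spread: Sox17 reached 1 FPKM in 4 morulae and 9 blastocysts, Gata4 in 2 and 8, Lama1 in 1 and 8, Pdgfra in 7 and 9, Col4a1 in 7 and 8, and Sox7 in 1 and 4. An embryo had between 3 and 9 of the markers at 1 FPKM. All 9 were at that level in WT blastocysts 2 and 3 alone, which are the only embryos with Foxa2 at 1 FPKM. WT blastocyst 1, Gabpb1 cross blastocyst 3 and Gabpb1 cross non-KO morula 1 had 8 markers at that level.

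**Figure D1:**
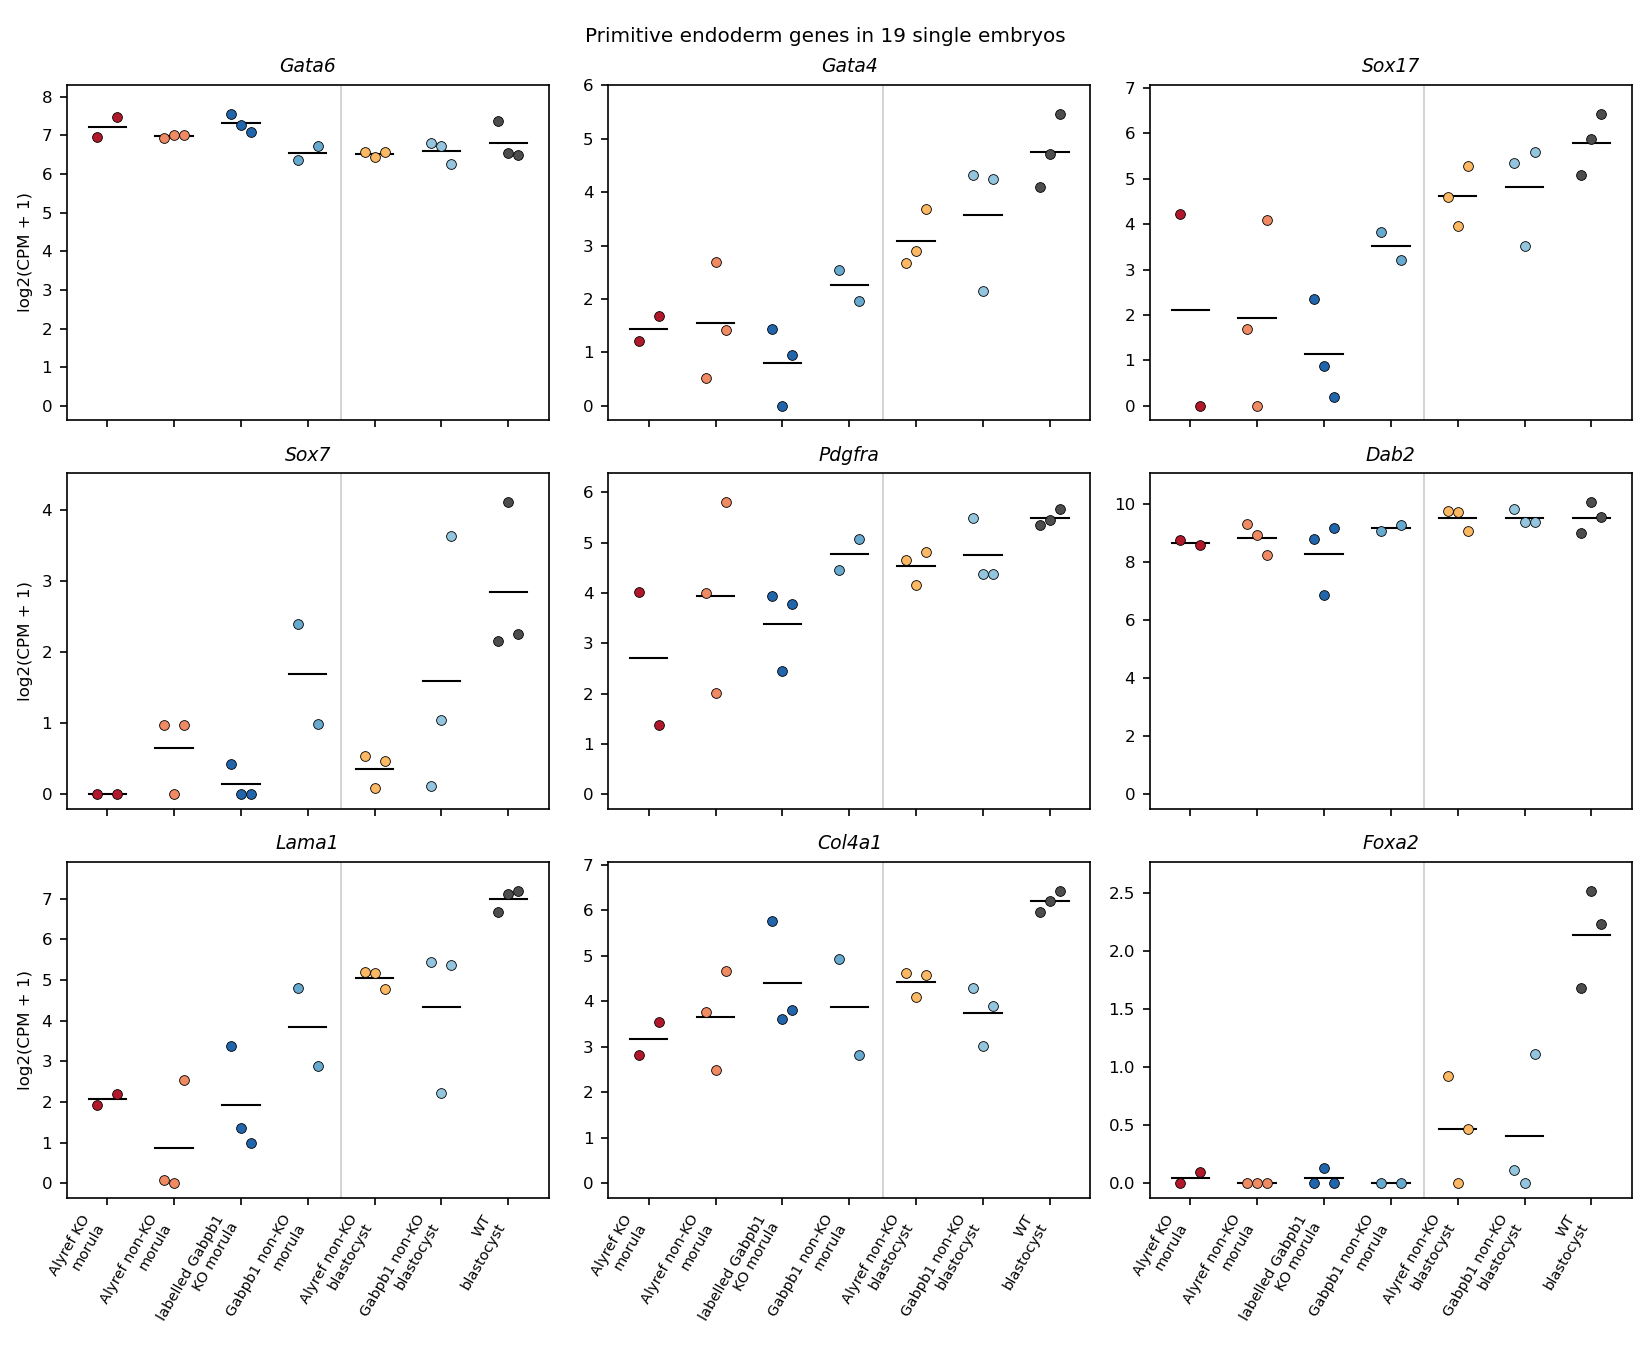
Level of each marker, as log2(CPM + 1), in the 19 embryos grouped by cross, label and stage. Points are embryos, horizontal bars are group means, and the grey line separates morulae from blastocysts. Gata6 and Dab2 are high in every group, whereas Lama1, Col4a1 and Foxa2 are highest in the 3 WT blastocysts.

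Morulae and blastocysts of the same age were compared among non-KO embryos. Over both crosses, Gata4, Sox17 and Lama1 had higher means in blastocysts and Foxa2 had counts in blastocysts alone, whereas the log2 differences of Gata6, Pdgfra and Col4a1 were between -0.20 and 0.08. None of the 9 markers passed an adjusted p of 0.05 in edgeR's quasi-likelihood test with Benjamini-Hochberg adjustment, which is used for every adjusted p below. In that comparison 4.36% of the 18410 genes were called. No marker was without overlap between all non-KO morulae and all blastocysts of the crosses, against 2.51% of genes higher and 2.05% lower in blastocysts. At an unadjusted p under 0.05 there were 3 markers, against 24.5% of all genes, and DESeq2 called 2 markers, Gata4 and Foxa2. The median log2 difference of the markers was 0.52, and that of all tested genes -0.02. With scaling on ERCC RNA the median of all genes moved to -0.61 and 4 markers were higher and 5 lower in blastocysts, in place of 6 and 3.

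Gata6 (ENSMUSG00000005836.8, mm10 chromosome 18, 11052510 to 11085635, plus strand) acts first among these factors. It was at 120.2, 128 and 127 CPM in the Alyref cross non-KO morulae and at 94.4, 85.7 and 93.9 CPM in the blastocysts of that cross. It was at 81.3 and 105 CPM in the Gabpb1 cross non-KO morulae and at 109.9, 104 and 76.2 CPM in the blastocysts. The stages were thus separate in the Alyref cross, with blastocysts lower, and overlapped in the Gabpb1 cross. The log2 difference over both crosses was -0.20 (SE 0.18, adjusted p = 0.524). A long noncoding RNA gene, 1010001N08Rik, overlaps Gata6 on the other strand and held 2793 counts over all embryos against 31380 for Gata6. The strand setting of the counting is not given in the sources used here, so reads of such overlapping pairs are uncertain.

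Gata4 (ENSMUSG00000021944.15, chromosome 14, 63198922 to 63271692, minus strand) and Sox17 (ENSMUSG00000025902.13, chromosome 1, 4490931 to 4497354, minus strand) follow Gata6 in the lineage. Gata4 was at 0.434, 5.48 and 1.68 CPM in Alyref cross non-KO morulae and at 5.42, 6.45 and 11.9 CPM in the blastocysts. For the Gabpb1 cross the values were 4.84 and 2.89 CPM in non-KO morulae and 18.9, 3.43 and 18.1 CPM in blastocysts. In each cross 1 blastocyst lay within the range of the morulae. The log2 difference over both crosses was 1.73 (SE 0.67, adjusted p = 0.129).

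Sox17 was at 2.23, 0 and 16.1 CPM in Alyref cross non-KO morulae, at 23.2, 14.5 and 38.0 CPM in the blastocysts, at 13.2 and 8.21 CPM in Gabpb1 cross non-KO morulae and at 39.4, 10.4 and 47.2 CPM in the blastocysts. As with Gata4, the groups overlapped through a single blastocyst in each cross. The log2 difference was 1.82 (SE 1.03, adjusted p = 0.297). Gabpb1 cross blastocyst 2 had the lowest Gata4 and the lowest Sox17 of the 9 blastocysts.

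Sox7 (ENSMUSG00000063060.6, chromosome 14, 63943673 to 63950732, plus strand), a relative of Sox17, was scarce. It held 0 to 60 counts in non-KO morulae and 1 to 157 counts in blastocysts of the crosses, with means of 1.64 and 2.25 CPM. The mean of the log2 differences of the 2 crosses had the other sign, -0.21 (SE 0.98, adjusted p = 0.927). The highest of these values, 11.5 CPM, belonged to Gabpb1 cross blastocyst 3. Foxa2 (ENSMUSG00000037025.11, chromosome 2, 148042877 to 148046969, minus strand), a forkhead factor of endoderm, had no count in the 5 non-KO morulae. It held 28, 0 and 4 counts in Alyref cross blastocysts and 1, 0 and 16 counts in Gabpb1 cross blastocysts. Against a floor of 3 counts over the morulae together, its mean was at least 10.3-fold higher in blastocysts (adjusted p = 0.0544). That bound covers counting error only, the groups overlapped at 0 counts, and most counts came from 1 blastocyst of each cross.

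Pdgfra (ENSMUSG00000029231.15, chromosome 5, 75152292 to 75198215, plus strand), the receptor for PDGF on primitive endoderm cells, was already present in morulae. It was at 14.9, 3.04 and 54.8 CPM in the Alyref cross non-KO morulae, a spread that covered the values of 24.1, 16.8 and 27.2 CPM in the blastocysts. In the Gabpb1 cross it was at 21.1 and 32.6 CPM in non-KO morulae and at 43.8, 19.9 and 19.8 CPM in blastocysts. The log2 difference was -0.02 (SE 0.59, adjusted p = 1.00). Its ligand gene Pdgfa was the only one of 5 genes for PDGF ligands and the partner receptor that passed the filter, and it was at 76.3 CPM in non-KO morulae and 86.3 CPM in blastocysts on average (adjusted p = 0.464).

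Dab2 (ENSMUSG00000022150.16, chromosome 15, 6299788 to 6440712, plus strand) encodes an endocytic adaptor needed to place endoderm cells at the surface. It was at 639.8, 484 and 304 CPM in Alyref cross non-KO morulae and at 859, 848 and 542 CPM in the blastocysts. It was at 536 and 612 CPM in Gabpb1 cross non-KO morulae and at 911, 664 and 669.8 CPM in the blastocysts. The stages overlapped in the Alyref cross and were separate in the Gabpb1 cross, where 11.4% of genes were higher in blastocysts without overlap. The log2 difference over both crosses was 0.52 (SE 0.33, adjusted p = 0.352), and it was -0.02 with ERCC scaling.

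Lama1 (ENSMUSG00000032796.7, chromosome 17, 67697265 to 67822645, plus strand) encodes the alpha 1 chain of laminin 111. It was at 0.0543, 0 and 4.79 CPM in Alyref cross non-KO morulae and at 35.6, 34.7 and 26.6 CPM in the blastocysts, so that the stages did not overlap. In the Gabpb1 cross it was at 27.0 and 6.39 CPM in non-KO morulae and at 42.2, 3.67 and 40.0 CPM in blastocysts, and the stages overlapped. Lama1 rose from morulae to blastocysts of the Alyref cross by 4.30 on the log2 scale (SE 1.24, adjusted p = 0.0349), the only marker called there. Of all genes 13% were called and 19.6% were higher in blastocysts without overlap. An unadjusted p under 0.05 was reached by 2 markers, Lama1 and Foxa2, and by 31.1% of all genes. Gata6 was the only marker lower without overlap there, as were 19.2% of all genes, with a log2 difference of -0.45 (SE 0.24, adjusted p = 0.210). The Lama1 call was lost with ERCC scaling (3.53, adjusted p = 0.233), with only the compared groups in the fit (4.33, adjusted p = 0.111) and without any 1 of 5 embryos, Alyref cross morulae 1 and 2 and blastocysts 1, 2 and 3, where the adjusted p was 0.0644 to 0.116. Without morula 3 the call was kept, but the 2 remaining non-KO morulae of that cross held 1 and 0 counts of Lama1, so no size is given.

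Between the stages of the Gabpb1 cross no marker and 0% of all genes were called. An unadjusted p under 0.05 was found there for 1237 genes, or 6.72%, and for 1 marker, Foxa2, and DESeq2 called 57 genes, none of them a marker. Lama1 differed by 0.78 (SE 1.21, adjusted p = 0.957). The stage difference of Lama1 was smaller in the Gabpb1 cross than in the Alyref cross by 3.52 on the log2 scale (SE 1.64, unadjusted p = 0.0478, adjusted p = 0.359). No marker was called for this difference between crosses, for which 0.00543% of genes were called (2534 genes at an unadjusted p under 0.05, 336 by DESeq2). The non-KO morulae of the 2 crosses already differed in Lama1, by 3.35 (SE 1.26, adjusted p = 0.144) with the Gabpb1 cross higher and without overlap. No marker was called between these morulae, where 1.86% of genes were, and Lama1 and Sox7 were the 2 markers higher without overlap, as were 17.9% of all genes. Gata6 was lower there without overlap, as were 18.2% of all genes.

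Markers of the trophectoderm, the outer layer of the blastocyst, moved with stage and with cross. All 14 listed trophectoderm genes were tested, and their summed level was 939.8 to 2521 CPM in Alyref cross non-KO morulae, 3717 to 5322 CPM in Gabpb1 cross non-KO morulae and 5842 to 9225 CPM in the blastocysts of the crosses. Of these genes 6 rose and 1 fell between the stages of the Alyref cross, and of 12 tested epiblast genes 3 fell. The keratin genes Krt8 and Krt18 were detected in every embryo, and Elf5 was at 0 in Alyref cross non-KO morula 2 and Alyref KO morula 1. The part of embryo progress or cell makeup in the values of the 9 markers was not tested. In whole embryos, fewer cells of a type and less RNA per cell cannot be told apart.

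Col4a1 (ENSMUSG00000031502.11, chromosome 8, 11198423 to 11312826, minus strand) encodes the alpha 1 chain of type IV collagen, which is assembled with the alpha 2 chain encoded by Col4a2. It was at 12.7, 4.64 and 24.5 CPM in Alyref cross non-KO morulae, 23.8, 16.0 and 23.1 CPM in the blastocysts, 29.3 and 6.08 CPM in Gabpb1 cross non-KO morulae and 18.5, 7.11 and 14.0 CPM in the blastocysts. The stages overlapped in both crosses, and the log2 difference was 0.08 (SE 0.50, adjusted p = 0.949). Its value was -0.63 with ERCC scaling.

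Col4a1 and Col4a2 lie head to head and their gene models share 22 bases. Their promoters are shown because both chains were highest in WT blastocysts, as given below, and start within the same stretch. The promoter windows, from 250 bases before to 50 bases after each start, are from RefSeq on GRCm38.p6 and are printed 5′ to 3′ on the strand of the gene, with the 78 bases common to both windows in capitals. The common bases are chr8:11312777-11312854, read on opposite strands.
Col4a1 chr8:11312777-11313076, minus strand: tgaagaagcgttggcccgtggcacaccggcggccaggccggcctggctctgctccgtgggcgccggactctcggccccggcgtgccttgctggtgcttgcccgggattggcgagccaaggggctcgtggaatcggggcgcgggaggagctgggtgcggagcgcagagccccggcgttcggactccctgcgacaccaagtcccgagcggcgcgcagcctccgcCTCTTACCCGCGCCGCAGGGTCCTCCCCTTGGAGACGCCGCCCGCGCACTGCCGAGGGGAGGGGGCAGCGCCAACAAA
Col4a2 chr8:11312555-11312854, plus strand: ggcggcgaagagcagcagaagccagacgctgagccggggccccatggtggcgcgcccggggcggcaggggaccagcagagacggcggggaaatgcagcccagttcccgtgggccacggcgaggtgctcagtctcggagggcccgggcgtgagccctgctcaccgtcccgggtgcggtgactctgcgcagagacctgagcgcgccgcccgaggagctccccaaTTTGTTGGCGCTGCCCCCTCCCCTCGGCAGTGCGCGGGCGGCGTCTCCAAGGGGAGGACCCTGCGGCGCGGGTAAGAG
The 2 windows were 74% and 73.7% G and C. RefSeq windows were held for 4 of the 9 markers, 7 windows in all. The GATA motif, spelt as AGATAA, as TGATAA, as AGATAG or as TGATAG on either strand, occurred in 2 of the 7 windows, 1 of Dab2 and 1 of Foxa2, and in 29.8% of 32851 windows of the same length. The SOX spelling ACAAT, on either strand, occurred in none of the 7 and in 31.0% of the 32851 windows.

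KO and non-KO morulae were compared within each cross, which asks whether these markers differ where either gene is lost. The most abundant markers, Gata6 and Dab2, differed by 0.26 and -0.23 on the log2 scale between KO and non-KO morulae of the Alyref cross. All 9 markers overlapped between these groups, whereas 12.5% of all genes were higher and 12.3% lower without overlap. No marker was called, against 0.228% of all genes, and none had an unadjusted p under 0.05, against 12.1% of all genes. DESeq2 called no marker either. The adjusted p-values ran from 0.461 to 0.943, and the median log2 difference of the markers was -0.23 against -0.04 for all genes.

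Gata6 was at 123 and 178 CPM in the Alyref KO morulae, against 120.2 to 128 CPM in the non-KO morulae (log2 difference 0.26, SE 0.27). Sox17 was at 17.7 and 0 CPM in the KO morulae, with a log2 difference of 0.49 (SE 1.49) that turned below 0 without KO morula 1, when the KO group was 1 embryo with no count. Lama1 was at 2.77 and 3.60 CPM and Col4a1 at 6.07 and 10.6 CPM in the KO morulae, all inside the range of the non-KO morulae. Sox7 had no count in either KO morula and 18, 0 and 15 counts in the non-KO morulae. Against a floor of 3 counts over the KO morulae together, its mean was at least 4.89-fold lower. That bound covers counting error only, and the groups overlapped at 0 counts (edgeR unadjusted p = 0.0681, adjusted p = 0.461). Pdgfra was at 15.3 and 1.60 CPM in the KO morulae (log2 difference -1.55, SE 0.95, adjusted p = 0.559).

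Among morulae of the Gabpb1 cross, Gata6 was higher and Gata4, Sox17, Sox7 and Pdgfra were lower in every morula labelled KO than in either non-KO morula. No marker was called, against 1.65% of all genes. Higher values without overlap were found for 15.8% of all genes and lower ones for 16.4%. An unadjusted p under 0.05 was reached by 2 markers, Gata6 and Sox7, and by 18.9% of all genes. DESeq2 called no marker. The median log2 difference of the markers was -1.34 and that of all genes 0.06.

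Gata6 was at 188, 154 and 136 CPM in the morulae labelled Gabpb1 KO and at 81.3 and 105 CPM in the non-KO morulae. The log2 difference was 0.77 (SE 0.27, unadjusted p = 0.0128, adjusted p = 0.152). With ERCC scaling, under which the median of all genes was -0.40, the value for Gata6 was 0.40 (SE 0.64). Gata6 in the morulae labelled KO was also above the 9 blastocysts except WT blastocyst 1, at 166 CPM. The same held for all Alyref cross morulae, KO and non-KO, at 120.2 to 178 CPM, so this order was not particular to the label.

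The later factors showed the opposite order. Gata4 was at 1.72, 0 and 0.922 CPM in the morulae labelled KO against 4.84 and 2.89 CPM in the non-KO morulae (log2 difference -2.11, SE 1.01, adjusted p = 0.274). Sox17 was at 4.13, 0.833 and 0.142 CPM against 13.2 and 8.21 CPM (log2 difference -2.66, SE 1.54, adjusted p = 0.368). Sox7 held 4, 0 and 0 counts against 60 and 13 (log2 difference -4.46, SE 1.75, unadjusted p = 0.0229, adjusted p = 0.193). These 3 factors shared 1 feature, that morulae 2 and 3 labelled KO had at most 0.922 CPM of any of them.

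Pdgfra was at 14.5, 4.44 and 12.8 CPM in the morulae labelled Gabpb1 KO against 21.1 and 32.6 CPM (log2 difference -1.34, SE 0.88, adjusted p = 0.424). Dab2 was at 438, 114 and 580.5 CPM against 536 and 612 CPM (log2 difference -0.60, SE 0.48, adjusted p = 0.516). The lowest Dab2 value of all 19 embryos was that of morula 2 labelled KO. Lama1 was at 9.38, 1.57 and 0.993 CPM against 27.0 and 6.39 CPM (log2 difference -2.07, SE 1.21, adjusted p = 0.370). Col4a1 was at 53.8, 11.3 and 13.1 CPM against 29.3 and 6.08 CPM, with a log2 difference of 0.56 (SE 0.75) that was -0.54 without morula 1 labelled KO.

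Trophectoderm markers summed to 627 to 3162 CPM in the morulae labelled Gabpb1 KO and to 3717 to 5322 CPM in the non-KO ones beside them. Of the 14 genes 1 fell, Cldn4, a tight junction protein (log2 difference -1.18, SE 0.28, adjusted p = 0.0446). The 13 epiblast markers summed to 692 to 923 CPM and to 397 to 704 CPM, and none of the 12 tested was called. The part of these shifts in the marker values was not tested. The KO difference in the Gabpb1 cross minus that in the Alyref cross was called for no marker, against 0.907% of all genes. None had an unadjusted p under 0.05, against 16.8% of all genes, and DESeq2 called none. For Gata6 it was 0.51 (SE 0.38, adjusted p = 0.525) and for Sox17 -3.15 (SE 2.13, adjusted p = 0.476).

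**Figure D2:**
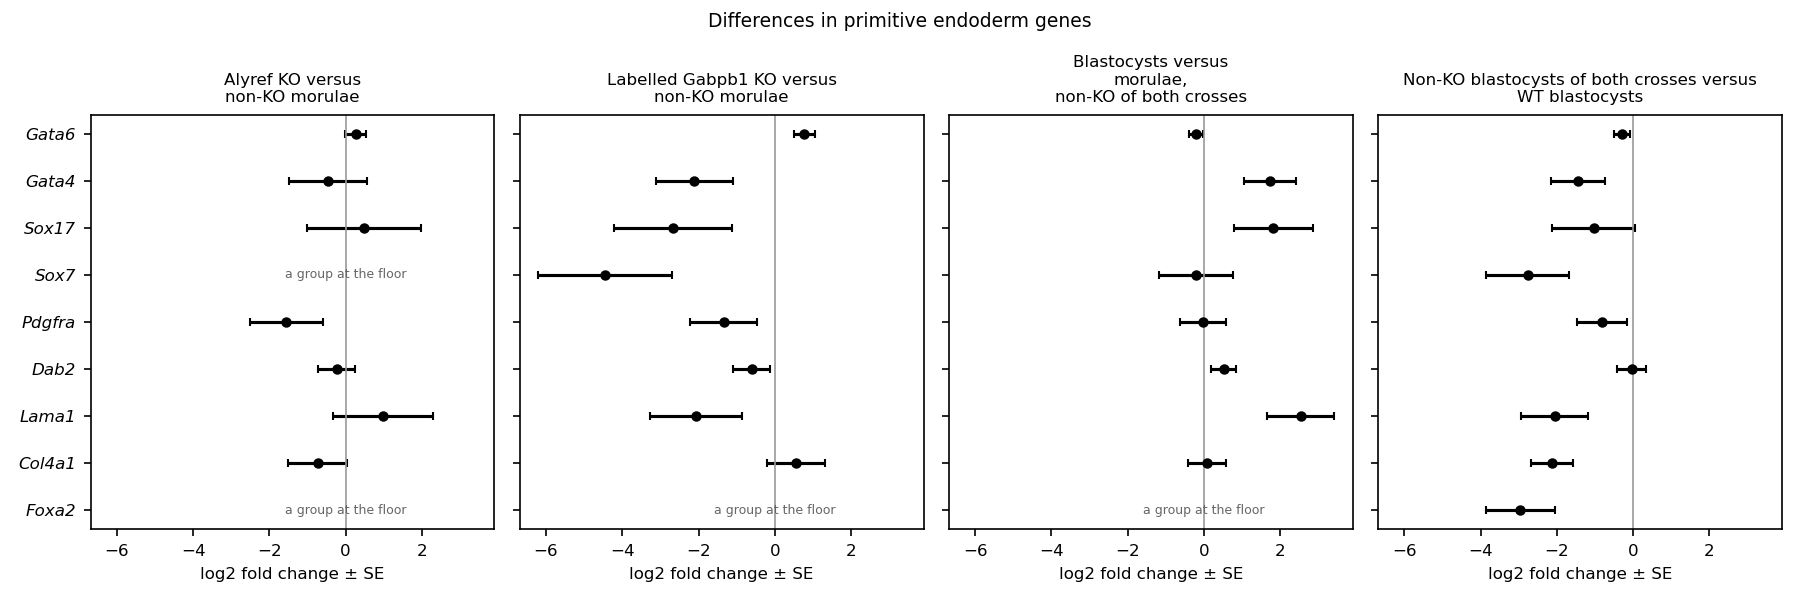
Log2 difference (first group minus second, horizontal axis) with its standard error for each marker in 4 comparisons, from edgeR. A marker with a group at the floor of 3 counts has no point. In the comparison of crosses with WT blastocysts all 9 points lie below 0, at -0.04 for Dab2 and -2.96 for Foxa2.

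Blastocysts were also compared between the crosses and WT parents. All 9 markers had lower fitted means in the non-KO blastocysts of each cross than in WT blastocysts. Over both crosses the differences were largest for Foxa2, Sox7, Col4a1 and Lama1. No marker was called in the Alyref cross, in the Gabpb1 cross or over both, and 0% of all genes were called in each of the 3 comparisons. An unadjusted p under 0.05 was found for 541, 1123 and 837 genes, and DESeq2 called 15, 42 and 33 genes. The single marker among those was Col4a1 in the Gabpb1 cross (adjusted p = 0.0492 by DESeq2). The comparison over both crosses was added after the values were seen, and both crosses share the same 3 WT blastocysts.

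Over both crosses 4 markers had an unadjusted p under 0.05, against 4.55% of all genes, and 3 were lower without overlap, against 1.92%. The 3 were Lama1, Col4a1 and Foxa2, of which Foxa2 could pass the filter only where WT was high. The median log2 difference of the markers was -1.45 and that of all genes -0.01. With ERCC scaling 8 of 9 markers were lower, Dab2 being at 0.05. In the Alyref cross 6 markers were lower than WT without overlap (6.15% of all genes): Gata4, Sox7, Pdgfra, Lama1, Col4a1 and Foxa2. In the Gabpb1 cross 3 were (6.33% of all genes): Lama1, Col4a1 and Foxa2. No marker was higher than WT without overlap in any of the 3 comparisons, against 6%, 6.51% and 1.87% of all genes in the Alyref cross, the Gabpb1 cross and both. At an unadjusted p under 0.05 there were 4 markers in the Alyref cross (2.94% of all genes) and 2 in the Gabpb1 cross (6.1% of all genes). Foxa2 is among the markers in each of these counts of lower markers and of unadjusted p, where its filter favours WT.

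Col4a1 was at 61.7, 73.5 and 85.0 CPM in WT blastocysts, against 7.11 to 23.8 CPM in the 6 blastocysts of the crosses. Its log2 difference over both crosses was -2.14 (SE 0.55, unadjusted p = 0.00133, adjusted p = 0.626). It was -1.81 (SE 0.68) in the Alyref cross and -2.47 (SE 0.70) in the Gabpb1 cross. Lama1 was at 100.4, 137 and 144 CPM in WT blastocysts against 3.67 to 42.2 CPM in those of the crosses (log2 difference -2.06, SE 0.87, unadjusted p = 0.0316, adjusted p = 1.00). Even the lowest WT value was more than the highest of any other embryo for both genes.

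Foxa2 was at 2.21, 4.74 and 3.70 CPM in WT blastocysts, from 33, 74 and 55 counts, against at most 1.17 CPM in those of the crosses (log2 difference -2.96, SE 0.91, unadjusted p = 0.00639, adjusted p = 0.877). Sox7 was at 3.48, 16.3 and 3.76 CPM in WT blastocysts and at 0.451, 0.0620 and 0.379 CPM in those of the Alyref cross, which did not overlap (log2 difference -4.65, SE 1.51, adjusted p = 1). In the Gabpb1 cross, where blastocyst 3 was at 11.5 CPM, the Sox7 ranges overlapped (log2 difference -0.89, SE 1.27). Gata4 was at 16.1, 25.2 and 43.3 CPM in WT blastocysts (log2 difference over both crosses -1.45, SE 0.70, adjusted p = 1.00) and Sox17 at 32.8, 57.7 and 85.2 CPM (-1.03, SE 1.08).

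The receptor, the adaptor and Gata6 stood closer to WT. Pdgfra was at 40.1, 43.0 and 49.7 CPM in WT blastocysts, above the 3 blastocysts of the Alyref cross and overlapping those of the Gabpb1 cross, which reached 43.8 CPM (log2 difference over both -0.82, SE 0.66). Dab2 was at 507, 1062 and 744 CPM in WT blastocysts, a range that overlapped both crosses (-0.04, SE 0.37). Gata6 was at 166, 92.0 and 89.1 CPM (-0.30, SE 0.21), and without WT blastocyst 1 its difference was 0.05.

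The 3 WT blastocysts were above all 16 other embryos, morulae included, for Lama1 and Col4a1, that is for 2 of the 8 markers other than Foxa2, and for 0.788% of all genes. Foxa2 also had this order, but passed the filter only through WT blastocysts, so it is not counted. They were below all 16 for no marker and for 0.815% of all genes. The highest other values were 42.2 CPM for Lama1, in a Gabpb1 cross blastocyst, and 53.8 CPM for Col4a1, in morula 1 labelled Gabpb1 KO. Trophectoderm markers summed to 6755 to 8021 CPM in WT blastocysts, inside the range of the blastocysts of the crosses. Epiblast markers summed to 780.1 to 868 CPM in WT and 624 to 1031 CPM in the crosses. The part of stage within the blastocyst period, of parents or of batch in these differences was not tested.

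Of 4 partners of Lama1 and Col4a1 in the basement membrane, 3 also had the WT blastocysts above all 16 other embryos. Other genes of their list were not examined for this order. Lamb1 and Lamc1, the beta and gamma chains of laminin, were at 109, 114 and 133 CPM and at 121, 119.8 and 132 CPM in WT blastocysts, against at most 69.4 CPM for Lamb1 and 69.9 CPM for Lamc1 in blastocysts of the crosses. Col4a2 was at 35.3, 36.9 and 43.5 CPM in WT blastocysts against 3.67 to 16.6 CPM (log2 difference -1.92, SE 0.46, unadjusted p = 0.000763, adjusted p = 0.585). The WT blastocysts were above the other 16 embryos for Lamb1, Lamc1 and Col4a2, but not for Sparc, a collagen-binding protein, which was at 156, 506 and 406 CPM in WT and reached 201 CPM in the crosses. Over both crosses, all 15 tested genes of the basement membrane and collagen maturation list had lower fitted means than in WT, with a median of -0.78. Of all 18410 genes 8930 were higher. None of the 15 was called, and 4 had an unadjusted p under 0.05, against 4.55% of all genes. In the Alyref cross alone 2 of the 15 were higher than in WT, and in the Gabpb1 cross 0 were.

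**Figure D3:**
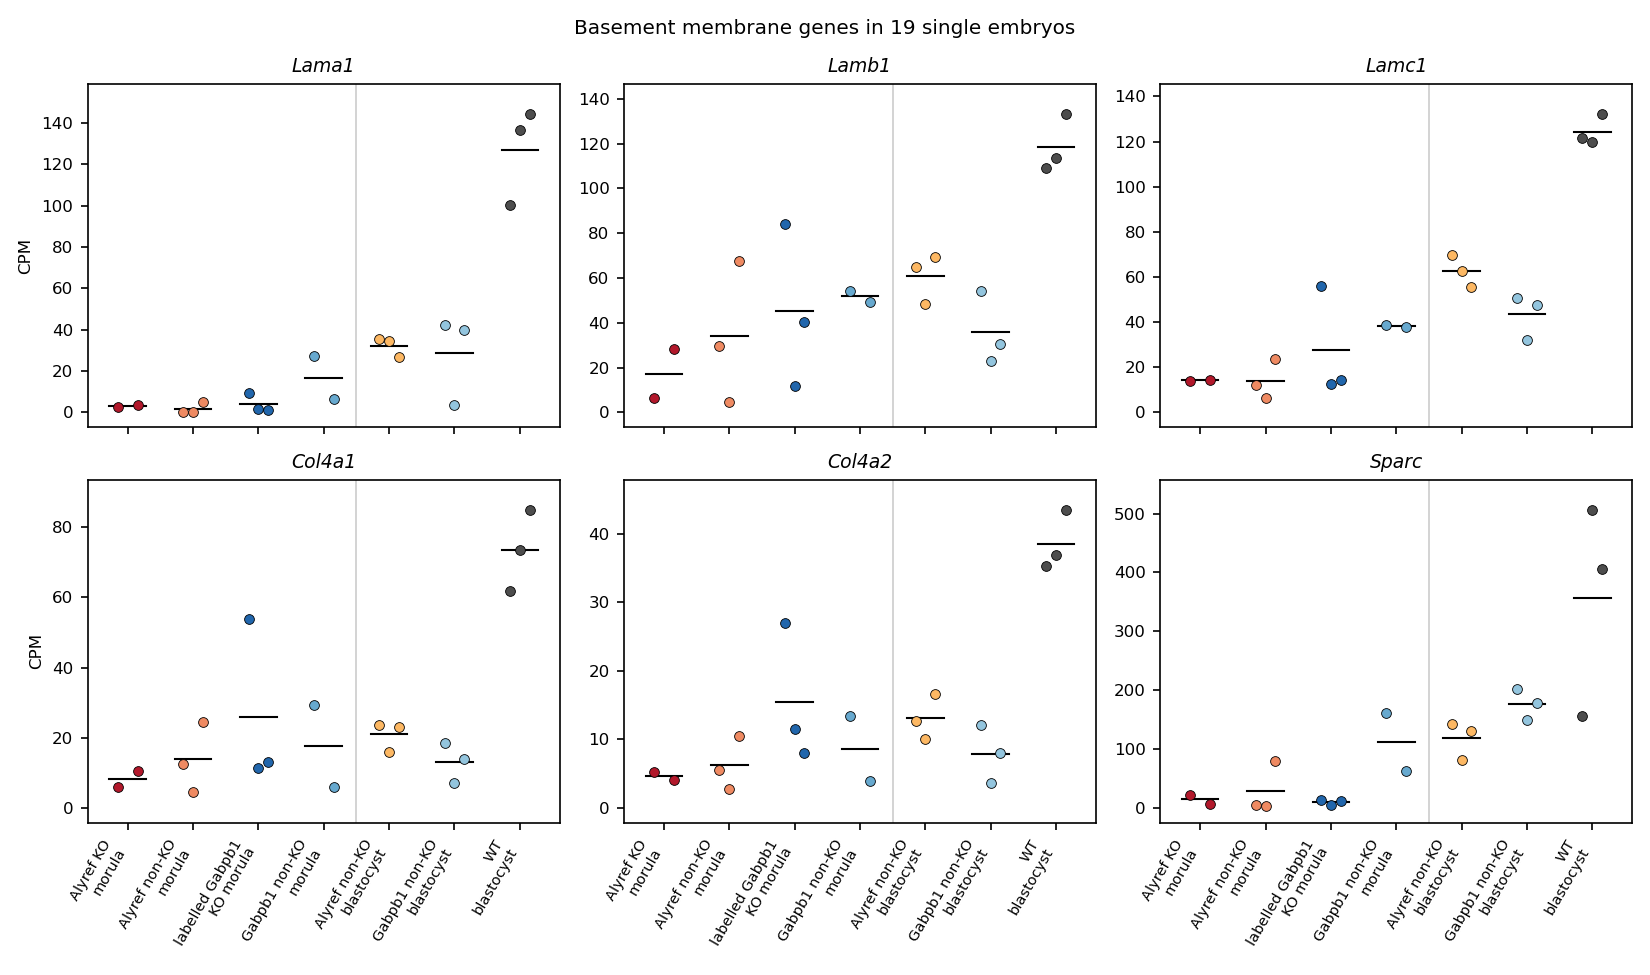
CPM of 2 markers, Lama1 and Col4a1, and of 4 partners in the 19 embryos. Points are embryos and bars are group means. The 3 WT blastocysts are above all 16 other embryos in each panel but that of Sparc.

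Between the stages of the Alyref cross, 2 of the 15 basement membrane genes rose and 1 fell. Lamc1 rose by 2.15 (SE 0.50, adjusted p = 0.0169), from a mean of 14.1 to 62.7 CPM, and Dag1, which encodes the laminin receptor dystroglycan, by 1.72 (SE 0.53, adjusted p = 0.0424). P4ha1, a proline hydroxylase for collagen, fell by 1.23 (SE 0.30, adjusted p = 0.0203). Col4a2 was at 6.29 ± 3.94 CPM (SD, n = 3) in morulae and 13.1 ± 3.30 CPM (SD, n = 3) in blastocysts of that cross. Over both crosses 1 gene of the list was called, P4ha1, which fell by 0.96 (SE 0.22, adjusted p = 0.0313).

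Variation of the markers from blastocyst to blastocyst was compared in pairs, using log2(CPM + 1) in the 9 blastocysts and the 7 markers at 1 FPKM in at least 5 of them, which gives 21 pairs. Gata4 and Sox17 had the closest relation (Pearson's r = 0.956, exact permutation p = 0.000105, two-sided, adjusted over the 21 pairs p = 0.0022). Spearman's rho was 0.95 (exact permutation p = 0.000353, adjusted p = 0.00741). Without the 2 blastocysts farthest from the median of Gata4, r was again 0.956, and with each group's mean removed it was 0.947. In the 6 blastocysts of the crosses alone, r was 0.925 (exact permutation p = 0.0167, adjusted p = 0.35).

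Of the 21 pairs 4 had an adjusted p under 0.05 by Pearson's r in the 9 blastocysts, and 2 by Spearman's rho. The other 3 by Pearson's r were Lama1 with Col4a1, with Gata4 and with Sox17. Lama1 and Col4a1 placed the WT blastocysts apart from the others, so no pooled value is given for their pairs. In the 6 blastocysts of the crosses, r was 0.818 between Lama1 and Col4a1 (exact permutation p = 0.140, adjusted p = 0.63), 0.689 between Gata4 and Lama1 (p = 0.0528, exact permutation) and 0.708 between Sox17 and Lama1 (p = 0.0556, exact permutation). Of the 21 pairs in these 6 blastocysts 1 had an unadjusted p under 0.05, Gata4 with Sox17, and none an adjusted one. Gabpb1 cross blastocyst 2 was lowest of the 6 in Gata4, Sox17, Lama1 and Col4a1.

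Gata6 and Dab2 did not share this pattern. None of the 11 pairs with either gene had a p under 0.05 in the 9 blastocysts. For Gata6 with Gata4, r was -0.0238 (exact permutation p = 0.954, adjusted p = 0.954; rho = -0.233), and without the 2 blastocysts farthest from the median of Gata6 it was -0.171. Pairs share the libraries and their scaling, and the 9 blastocysts come from 3 groups.

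**Figure D4:**
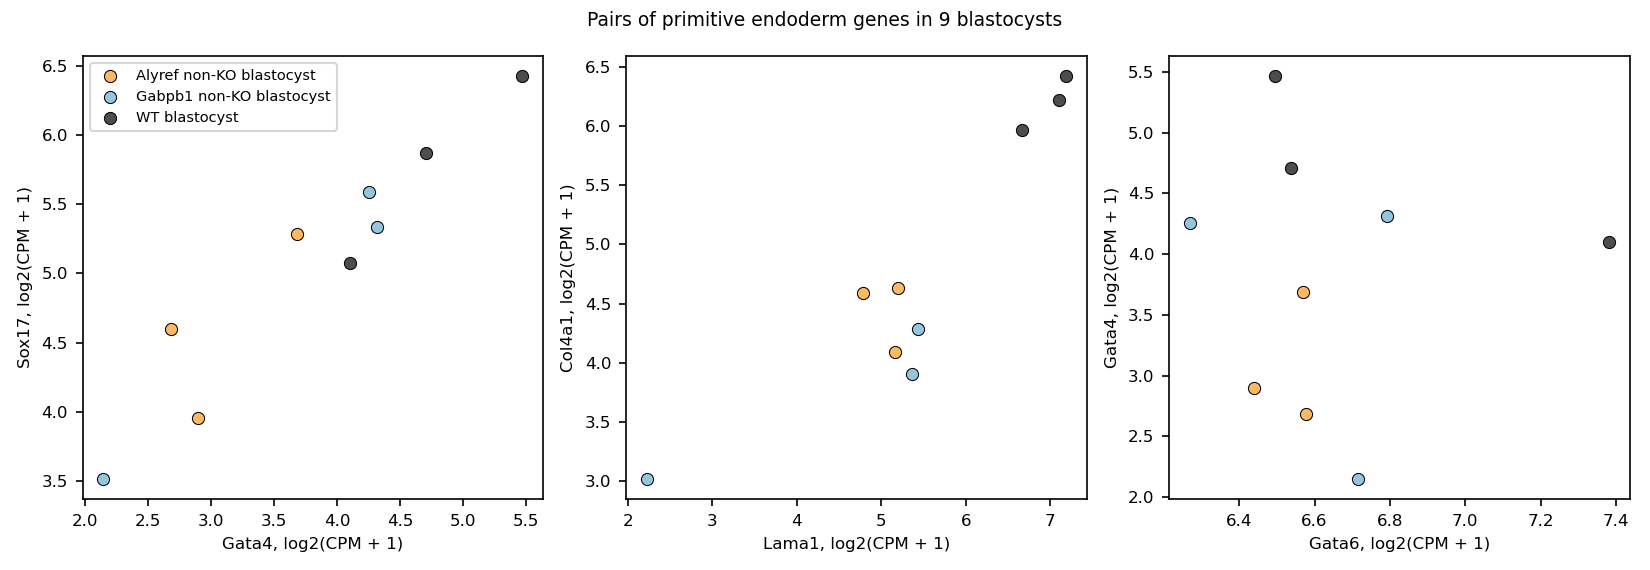
Scatter plots of 3 pairs of markers in the 9 blastocysts, each axis as log2(CPM + 1). Points are embryos coloured by group. Gata4 and Sox17 (r = 0.956) lie close to a line, the 3 WT blastocysts stand apart in the panel of Lama1 and Col4a1, and Gata6 shows no such order with Gata4.

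Gata6 was set beside Nanog, the epiblast factor with which it is first co-expressed, and beside genes of the FGF pathway. As a mean of the 2 crosses, Nanog was lower in blastocysts than in non-KO morulae by 0.88 on the log2 scale (SE 0.18, adjusted p = 0.0209). The difference between crosses in this stage change was called for none of the 12 tested epiblast genes, against 0.00543% of all genes. An unadjusted p under 0.05 in edgeR was found for 4 of the 12, against 13.8% of all genes. The values of each cross were as follows. Nanog fell by 1.95 in the Alyref cross (SE 0.25, adjusted p = 0.00432), from 374, 284 and 361 CPM to 105, 69.5 and 89.8 CPM. In the Gabpb1 cross Nanog did not fall. It was at 171 and 89.2 CPM in non-KO morulae and 122, 165 and 159.8 CPM in blastocysts, which overlapped. All 12 tested epiblast genes, Nanog included, had higher fitted means in the blastocysts of that cross, as did 9508 of all 18410 genes. None of the 12 was called and none had an unadjusted p under 0.05 in edgeR. The KO morulae of the Alyref cross had the highest Nanog of all embryos, at 511 and 478 CPM (adjusted p = 0.437 against non-KO).

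The log2 ratio of Gata6 to Nanog CPM, which carries the lengths of both transcripts and is used only to compare embryos, was -1.64, -1.15 and -1.50 in Alyref cross non-KO morulae and -0.15, 0.30 and 0.06 in the blastocysts. These did not overlap. It was -2.06 and -1.43 in Alyref KO morulae, -0.24, 0.01 and -0.59 in morulae labelled Gabpb1 KO, and -1.07 and 0.24 in the non-KO morulae beside them. Blastocysts of the Gabpb1 cross were at -0.15, -0.67 and -1.07 and WT blastocysts at 0.47, 0.07 and -0.22. The higher ratio in Alyref cross blastocysts went with lower Nanog, since Gata6 itself was not higher there.

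**Figure D5:**
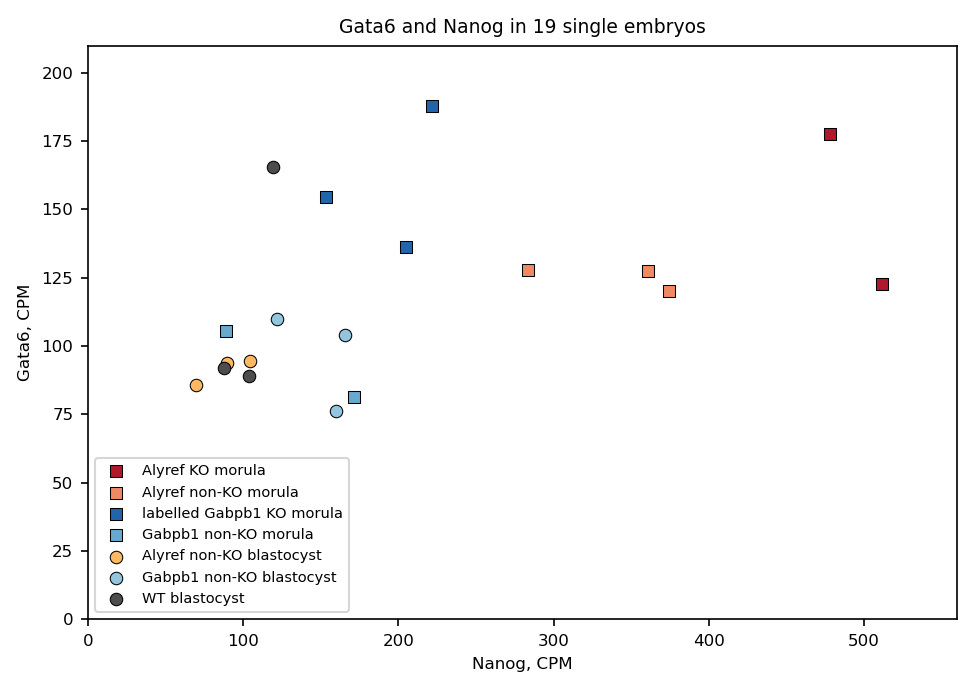
Gata6 against Nanog, both in CPM, in 19 embryos. Squares are morulae and circles blastocysts, coloured by group. Alyref cross morulae lie at the right, with Nanog from 284 to 511 CPM, and all blastocysts at the left, with Nanog at or below 165 CPM. Gabpb1 cross morulae, labelled KO or non-KO, had Nanog from 89.2 to 222 CPM and overlap the blastocysts.

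Of the 14 listed FGF pathway genes 13 were tested. Fgfr2, a receptor for FGF4, rose from non-KO morulae to blastocysts over both crosses by 1.24 (SE 0.30, adjusted p = 0.0348) and in the Alyref cross by 1.72 (SE 0.40, adjusted p = 0.0164), and was the only gene of the list that did. Between the stages of the Alyref cross 2 genes of the list fell, among them Grb2, an adaptor of receptor tyrosine kinases, by 0.97 (adjusted p = 0.0288). The ligand Fgf4 was at 1.74 to 14.2 CPM in non-KO morulae and 2.01 to 22.3 CPM in blastocysts of the crosses (adjusted p = 0.790), and Fgfr1 at 6.58 to 38.2 CPM and 23.0 to 34.1 CPM (adjusted p = 0.459). No gene of the list was called in either KO comparison or against WT. Fgfr2 is also on the trophectoderm list.

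Of 18 other genes of the primitive endoderm and its derivatives 12 were tested. Between the stages of the Alyref cross, Dkk1, a secreted Wnt antagonist, rose by 3.10 (SE 0.75, adjusted p = 0.0192), from a mean of 3.02 to 26.3 CPM. Cited1, a transcriptional coactivator, fell by 2.55 (SE 0.61, adjusted p = 0.0186), from 94.5 to 16.2 CPM. No other gene of this list was called in any comparison. Against WT blastocysts over both crosses, 4 of the 12 were higher and 8 lower, 1 and 5 with an unadjusted p under 0.05, and the median was -1.25. Of 10 oocyte genes 2 were tested, and Zp3, a zona pellucida protein, fell between the stages by 3.41 in the Alyref cross (adjusted p = 0.0163) and by 3.12 over both crosses (adjusted p = 0.0151). Of 16 family relatives of the markers 5 were tested, and 1 was called: Gata1, the factor of blood cells, fell by 4.05 (SE 0.98, adjusted p = 0.0191) between the stages of the Alyref cross.

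The genes most like Gata6, Gata4, Sox17 and Pdgfra were sought over all 19 embryos among 8366 genes with a mean of 5 FPKM or more, by Pearson's r of log2(CPM + 1). For Gata6 these were Rps10-ps1 (r = 0.895), its near-identical parent gene Rps10 (0.867) and Tbx3 (0.851). For Gata4 they were Aqp8 (0.888), Cnn3 (0.879) and Rsrp1 (0.873), and for Sox17 Gm28927 (0.925), Sparc (0.916) and mt-Co1 (0.911). For Pdgfra they were Tgif1 (0.879), Colgalt1 (0.860) and B3galnt1 (0.853). These values describe the 19 libraries, which share scaling and differ in stage and cross. Counts of Rps10 and its pseudogene may be split between them.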

How the data were processed

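PolyA RNA of 19 single embryos was sequenced after 16 PCR cycles with ERCC spike-in RNA. The submitters' processing notes name Trimmomatic, Trim Galore, cutadapt, STAR and featureCounts and the build mm10. The deposited values are raw counts per gene by their form, whole numbers with unequal totals, although the table is announced as FPKM, so edgeR was used in place of limma on log2(FPKM + 1). Coordinates are those of the deposited table.

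Groups came from the labels. The 92 ERCC entries were left out of library sizes and tests. Genes with FPKM of 1 or more in at least 2 embryos were tested with edgeR 4.0.16 (R 4.3.3), TMM scaling and the quasi-likelihood F test, with 1 mean per group fitted to all 19 embryos and Benjamini-Hochberg adjustment over 18410 genes. A gene was called at an adjusted p under 0.05. FPKM were computed from the counts and the deposited lengths. SE is the size of the log2 difference divided by the square root of F. Over both crosses, the log2 difference is the mean of the 2 crosses. Floors of 3 counts cover counting error only, since counts after PCR are not independent molecules.

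The 9 members, the lists and the comparisons were chosen with earlier results of these data known. The rule named all members, at most 5 called genes per list and comparison, partners of the members (Col4a2, Lamb1, Lamc1, Pdgfa, Nanog, Fgf4, Fgfr1 and Fgfr2), and the 3 most similar genes of 4 members. Called genes of the epiblast and trophectoderm lists are mostly given as counts, and not every called gene is reported here. Sparc and Krt8, Krt18 and Elf5 were named after their values were seen. Listed genes were 16 for basement membrane, 14 for FGF, 5 for PDGF, 18 for other primitive endoderm, 16 for relatives, and markers of epiblast, trophectoderm, cumulus, oocyte and sperm. Of 5 sperm genes 2 were tested and none was called, and of 10 cumulus genes 0 were tested. Replicates of a group differed beyond sampling noise. Alternatives were RLE and ERCC scaling, no filter, a filter at 5 FPKM, DESeq2 1.42.0, limma 3.58.1 with pseudocounts of 1 and 0.1, the replicate block, only the compared groups, and each embryo left out.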

Additional observations from a re-analysis of the deposited data

How the results depend on the processing

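A chosen part of the log2 differences was followed here. It holds the markers in the KO comparisons and their difference (without Foxa2), between stages over both crosses and against WT over both crosses. In the other comparisons only Lama1, Gata6, Col4a1 or Sox7 was followed. These log2 differences kept direction and side of the threshold in 420 values under other settings, turned direction in 15, gained a call in 8 and lost one in 2. With 1 embryo left out these numbers were 355, 31, 6 and 5. For blastocysts against morulae over both crosses, the number of markers called was 0, 1 with ERCC scaling, 1 without a filter, 2 with DESeq2, 1 with limma at either pseudocount and 0 to 2 with 1 embryo left out. For the stages of the Alyref cross it was 1, 0 with ERCC scaling, 0 with only the compared groups and 0 to 1 with 1 embryo left out. It was 1 with DESeq2 for the Gabpb1 cross against WT, and 1 with limma at a pseudocount of 1 for both crosses against WT (Foxa2, -1.08). Foxa2 passed the filter only through WT blastocysts, which favours that call, so it is no support for a difference from WT. Leaving out 1 embryo gave 0 to 1 markers for the KO difference between crosses, for the stage difference between crosses and for the non-KO morulae of the crosses, in each case Lama1 without Alyref cross non-KO morula 3 (fitted values -8.35, -8.82 and 8.65, from a group with 1 count in all, which are no bounds). The 4 pairs of markers with an adjusted p under 0.05 among 9 blastocysts became 1 to 8 when 1 blastocyst was left out, 1 without Gabpb1 cross blastocyst 2, 8 without Gabpb1 cross blastocyst 3, and 2 without WT blastocyst 2 or 3. Some directions turned. With ERCC scaling the stage value over both crosses was -0.0227 for Dab2 and -0.63 for Col4a1, that of Lama1 in the Gabpb1 cross -0.0731, and Dab2 against WT over both crosses 0.0547 (0.0021 and 0.0024 with limma). Pdgfra between stages over both crosses was 0.0131 without a filter and 0.13 and 0.32 with limma. For the KO difference between crosses limma gave -0.51 and -1.26 for Sox7 and -0.22 and -0.24 for Pdgfra, and Gata4 in Alyref KO morulae was 0.0234 with limma at 0.1. With 1 embryo left out, Alyref KO values ran from -0.051 to 0.51 for Gata6, -0.99 to 0.78 for Gata4, -9.49 to 2.84 for Sox17 and -0.47 to 0.0295 for Dab2. Those labelled Gabpb1 KO ran from -0.54 to 2.10 for Col4a1. The KO difference between crosses ran from -5.51 to 6.80 for Sox17, -1.96 to 3.21 for Sox7, -1.21 to 2.57 for Pdgfra and -0.84 to 0.0541 for Dab2. The values -9.49 and 6.80 of Sox17 are fitted with 1 KO morula at 0 counts and are no bounds. The stage value over both crosses ran from -1.68 to 0.49 for Sox7, -0.27 to 0.69 for Pdgfra and -0.28 to 0.85 for Col4a1, and that against WT from -0.27 to 0.26 for Dab2 and -0.45 to 0.0535 for Gata6. Sox7 in the Gabpb1 cross against WT ran from -3.83 (without Gabpb1 cross blastocyst 3) to 0.22 (without WT blastocyst 2). The cause of these changes was not tested.

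Counts of all genes called moved more. Against 42 (Alyref KO), 303 (labelled Gabpb1 KO), 167 (KO difference), 803 (stages, both crosses), 2402 (Alyref cross stages) and 342 (non-KO morulae of the crosses), DESeq2 called 502, 1284, 894, 2369, 3762 and 1709, fits of only the compared groups 0, 0, 0, 519, 24 and 0, and ERCC scaling 0, 26, 10, 1220, 352 and 2. Same-numbered embryos deviated together in 10 of 52 pairs (r over 0.1, median 0.0011) and other-numbered ones in 19 of 102 (median 0.00092). Deviations from means of 2 or 3 embryos are tied to each other, so this check cannot settle whether the numbers pair the embryos. With the replicate block, the markers called were the same in number in all 11 comparisons, Lama1 between the Alyref cross stages was at 4.78 (adjusted p = 0.0348), Pdgfra in the KO difference was at -0.67, and 8, 266, 117, 401, 2013 and 327 genes were called. Markers under about 1 CPM in a group rest on few counts, 3 counts being the floor.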
